A study of Mus musculus with 2 samples.

Results

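The RE1-silencing transcription factor complex and the small C-terminal domain (CTD) phosphatases were examined in mouse N2A neuroblastoma cells after depletion of the splicing repressor PTBP1. The 10 genes were taken from a list of names and not by their values: Rest, its CoREST scaffolds Rcor1, Rcor2 and Rcor3, the deacetylases Hdac1 and Hdac2, the corepressor Sin3a, and the phosphatases Ctdsp1, Ctdsp2 and Ctdspl. They are 10 of 11138 genes that had a mean of at least 20 splice junction reads over the libraries. Control cells were transfected with shControl and Ptbp1 knockdown cells with shptbp1, an shRNA against Ptbp1 alone, and both were cultured for 3 d. There was 1 poly(A), strand-specific RNA-seq library per condition, read as 100-base pairs, so the spread between cultures is unknown and nothing was tested. The intervals cover the counting error of reads only.

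REST binds RE1 elements in neuronal genes and represses them outside neurons. Its N-terminal part recruits SIN3A with HDAC1 and HDAC2, and its C-terminal part recruits CoREST, the product of the Rcor genes, which joins the same deacetylases to the histone demethylase KDM1A. The small CTD phosphatases, also called SCPs, remove phosphate from the tail of RNA polymerase II and from REST, and they take part in the silencing of neuronal genes. Neuronal microRNAs, among them miR-124, miR-9 and miR-26, target transcripts of this group, and loss of PTBP1 has been reported to expose such transcripts to them. The comparison asks how far the levels and the exon choice of these genes differed when Ptbp1 was low.

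The microRNAs are shown with their seed, bases 2 to 8, in capitals, because the seed is the part that pairs with a target and because the miR-26 family and these phosphatases share loci. No microRNA level was measured here. The sequences are the RefSeq entries of GRCm38.p6.
miR-9-5p: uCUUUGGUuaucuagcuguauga
miR-9-3p: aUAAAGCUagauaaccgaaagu
miR-26a-5p: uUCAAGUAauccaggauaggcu
miR-26b-5p: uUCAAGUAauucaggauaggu

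The 2 miR-26 sequences share the seed UCAAGUA. All 3 genes of this family lie inside a small CTD phosphatase gene: Mir26a-1 lies within Ctdspl, Mir26a-2 within Ctdsp2 and Mir26b within Ctdsp1. None of the 3 miR-9 genes lies within a gene of the group.

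The longest annotated 3′ untranslated region of each of the 10 genes was searched on the transcribed strand for the 7 letters complementary to each seed. Rest held a match to miR-9-5p and a match to miR-26, Rcor1 held a match to miR-26, Sin3a a match to miR-9-5p, and Ctdsp2 held a match to each of the 3 seeds. The letters of these 3 seeds were not in the regions of Rcor2, Rcor3, Ctdsp1, Ctdspl, Hdac1 and Hdac2. No sequence of miR-124 was at hand, so its matches were not searched in any of the 10 genes. The matches are shown because this group could pair there with the miR-9 and miR-26 seeds. Each is given as 30 bases of mm9 on the plus strand with the match in capitals.
Rest, miR-9-5p, chr5:77715182-77715211: tgttacttttctgaggcaaACCAAAGgtat
Rest, miR-26, chr5:77712339-77712368: aaaaattggcttagtaaatTACTTGAagaa
Rcor1, miR-26, chr12:112352903-112352932: tatccacgtaagcacctgtTACTTGAatat
Sin3a, miR-9-5p, chr9:56976033-56976062: gacatttattacactttttACCAAAGggag
Ctdsp2, miR-9-5p, chr10:126435352-126435381: cttcttggttctccatgtgACCAAAGccca
Ctdsp2, miR-9-3p, chr10:126433850-126433879: gctatgctgtgagctactgAGCTTTAcagc
Ctdsp2, miR-26, chr10:126434603-126434632: ttgtcccaagtgttgctctTACTTGAtttg

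Such matches are common. Of 19915 genes with an annotated 3′ untranslated region, 11.4% held ACCAAAG, 9.83% held AGCTTTA and 8.59% held TACTTGA. A match is a run of letters and was not shown to be a working site.

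The control library held 74381028 splice junction reads over 406178 distinct junctions and the knockdown library held 58293618. Ptbp1 itself had 40588 junction reads in the control and 10676 in the knockdown, a log2 ratio of −1.58, lower in the library labelled as knockdown. Its paralog Ptbp2, a neuronal splicing factor, had 5683 and 10738 reads, a log2 ratio of 1.27. Across all genes the median log2 ratio was 0.18 rather than 0, and ratios below are also given relative to this median gene. Of 12 neuroblastoma or neuronal markers, 2 had no junction counted, and the summed junction reads of the others were 881 RPM (reads scaled to the junction reads of the library) in the control and 1126 RPM in the knockdown. Hand2, which had no junction counted, had a locus depth of 3254 reads per base in the control and 3568, scaled to the control, in the knockdown. The markers differed in direction, since Dbh had 3755 and 12900 junction reads, while Stmn2 had 11650 and 6794. Astrocyte markers summed to 8 and 5 reads and microglia or blood markers to 19 and 24. Fibroblast markers, with Lum at 0 in both, summed to 242 and 469 reads, or 3.25 and 8.05 RPM, and their part in the results was not tested.

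The 10 genes spanned a wide range of levels per length. In exon RPKM, that is exon reads scaled to exon length and to all exon reads of the library, the control levels fell from Hdac1 at 115 and Hdac2 at 93.0, through Rcor2 at 53.8, Sin3a at 24.8, Ctdsp2 at 18.6, Ctdsp1 at 15.3, Rcor3 at 12.7 and Rcor1 at 7.87, to Rest at 2.87 and Ctdspl at 0.359. The knockdown kept this order except that Rcor3 at 14.5 stood above Ctdsp1 at 12.1. Exon length was summed over every distinct exon, overlapping versions included, which can lower genes with long alternative exons. Hdac2 had such an exon, and by junction reads in the control it lay above Hdac1, at 539 and 321 RPM. On the exon RPKM scale Rest, which gives the complex its DNA contact, was the least abundant member apart from Ctdspl. The order depended on the measure. By locus depth in the control, Rest at 175 lay above Rcor1 at 141 and Hdac1 at 38.2. Rcor3 at 830 lay above Sin3a at 316. This measure divides the depth times length of all isoforms by the length of the longest RefSeq isoform. Assembled isoforms of up to 8628 nt were thus divided by 4266 nt for Rest, and of up to 4352 nt by 1594 nt for Rcor3. The higher places of Rest and Rcor3 therefore need not reflect higher levels. With 1 library per condition, it cannot be said which neighbours in the RPKM order differ beyond the spread between cultures.

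**Figure D1:**
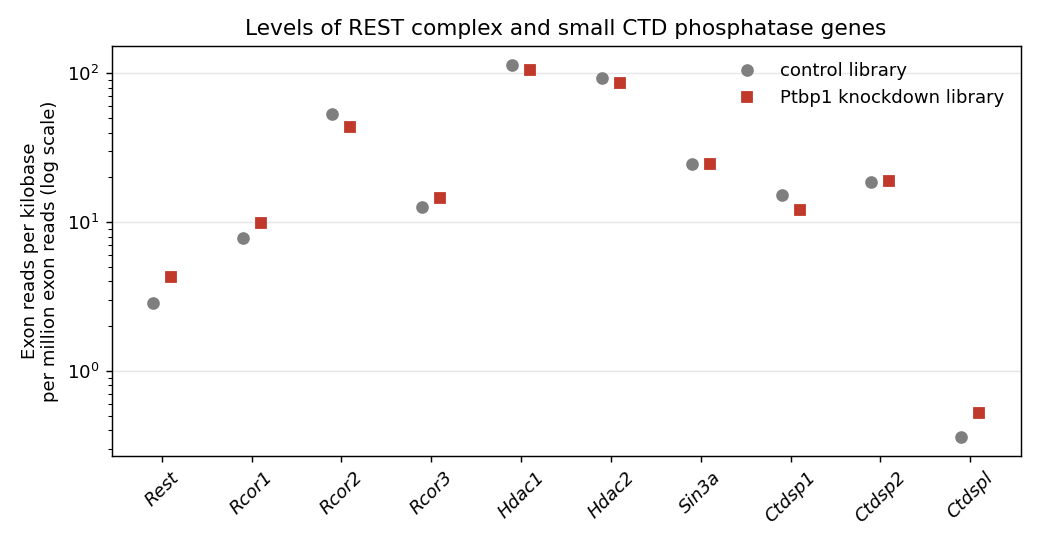
Level of each of the 10 genes on a log scale, in exon RPKM, in the control library (circles) and the Ptbp1 knockdown library (squares). Hdac1 and Hdac2 lie highest at 115 and 93.0 in the control, and Ctdspl lies lowest at 0.359. By junction reads Hdac2 lay above Hdac1.

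By junction reads, none of the 10 genes differed by 1.5-fold or more between the libraries in either direction. Among all genes, 19.2% were higher and 1.5% lower by that fold, and relative to the median gene 12.8% were higher and 4.12% lower. At a smaller threshold of 0.32 on the log2 scale relative to the median gene, 2 of the 10 were lower, the phosphatase gene Ctdsp1 and the scaffold gene Rcor2, and 0 were higher, beside 16.3% and 23.7% of all genes. A share of 2 in 10 lies near that background. The median log2 ratio of the 10 genes was 0.01, or −0.17 relative to the median gene.

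**Figure D2:**
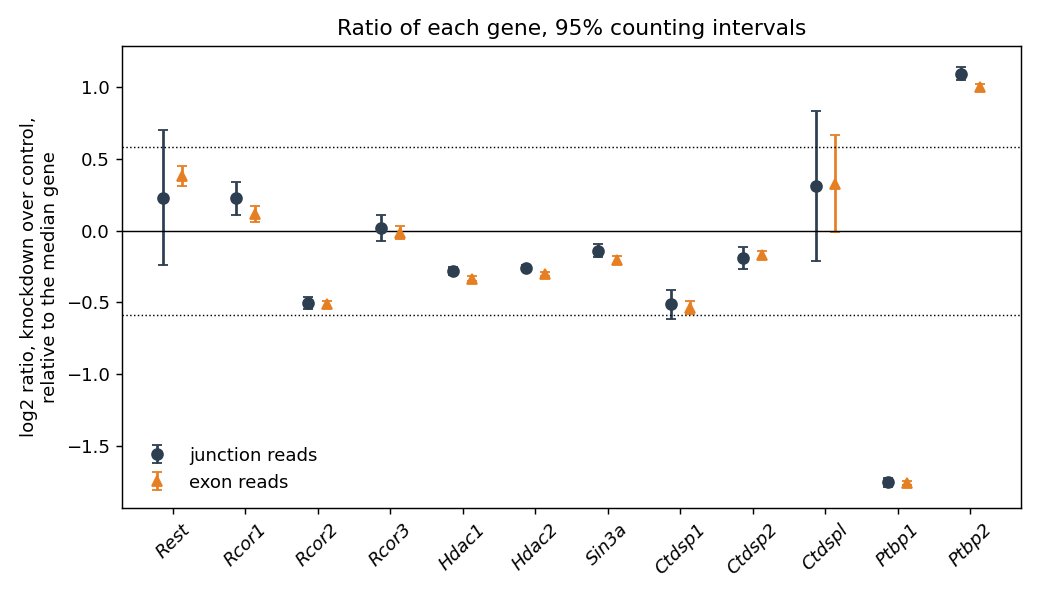
Log2 ratio of the knockdown over the control relative to the median gene, for junction reads (circles) and exon reads (triangles), with 95% counting intervals. Dotted lines mark 1.5-fold: Ctdsp1 at −0.51 and Rcor2 at −0.50 by junction reads lie lowest of the 10 genes, while Ptbp1 lies at −1.75.

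Rest (chr5:77694516-77715457, plus strand, mm9) had few junction reads, 77 in the control and 80 in the knockdown. The log2 ratio was 0.41 (95% interval −0.06 to 0.88), or 0.23 relative to the median gene with an interval from −0.24 to 0.70 that spans 0. Most Rest reads lay inside exons, 3045 in the control and 3649 in the knockdown. These gave a log2 ratio of 0.58, or 0.38 relative to the median gene (95% interval 0.31 to 0.45), so the knockdown library held more Rest signal by exon reads while junction reads could not show a difference at this depth.

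Rest transcripts are known to include, in neurons, a short exon between the last coding exons that truncates the protein. The control assembly contained an isoform with a 16-nt exon at this place, at a depth of 48.5 reads per base, and GENCODE has a Rest transcript that ends in an exon beginning at the same base. Other control isoforms lacked it, 1 of 4 exons at a depth of 38.6 and 1 of 2 exons at 31.8. The single assembled isoform of the knockdown library, at a depth of 102.7 reads per base, had no such exon. These depths are those of whole isoforms, not of the short exon, so they do not measure its inclusion. The exon is shown in capitals with 50 bases before and 20 after, as it stands on the plus strand of mm9. It is shown because 1 control isoform had it and the assembled knockdown isoform did not.
Rest short exon, chr5:77708874-77708959: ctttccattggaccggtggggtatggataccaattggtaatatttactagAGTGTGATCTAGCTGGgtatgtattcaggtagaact

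No trio of exons in the splicing tables had this exon in the middle, so no inclusion level can be given. The junction between the flanking exons had 3 reads in the control and 0 in the knockdown, while the junction before it had 58 and 60. Whether a read count of 0 in the knockdown differs from 3 in the control was not detectable at this depth.

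The 3 CoREST scaffold genes differed in direction. Rcor1 (chr12:112277561-112354112, plus strand), the scaffold first described with REST, had 1236 junction reads in the control and 1279 in the knockdown. Its log2 ratio was 0.40 (95% interval 0.29 to 0.51), or 0.22 (0.11 to 0.34) relative to the median gene, and 70.1% of all genes had a lower ratio. All 10 of its junctions with a mean of at least 20 reads lay above the median gene, from 0.02 to 0.42.

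Rcor2 (chr19:7341815-7349715, plus strand), a CoREST form found in embryonic stem cells and the nervous system, had 12104 junction reads in the control and 7574 in the knockdown. The log2 ratio was −0.32 (95% interval −0.37 to −0.28), and −0.50 (−0.54 to −0.46) relative to the median gene, which put it below all but 6.55% of genes. The exon reads gave the same picture, with 35041 in the control, 22639 in the knockdown and −0.51 relative to the median gene. Of 11 Rcor2 junctions with enough reads, 10 lay below the median gene. The exception was the last coding junction (chr19:7348740-7348832), with 159 reads in the control and 218 in the knockdown, a log2 ratio of 0.81 (95% interval 0.51 to 1.11), beside 945 and 576 reads on the junction before it. This junction therefore went the other way from the other 10, which does not show that the exons it joins did so. The trio holding both exons had 6987 reads in the control and 5204 in the knockdown, not scaled to library size.

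Rcor3 (chr1:193922652-193961892, minus strand), the third scaffold, had 2169 junction reads in the control and 1947 in the knockdown. The log2 ratio of 0.20 was 0.02 (95% interval −0.07 to 0.11) relative to the median gene, and its junctions split, 7 above and 5 below. The junctions of an exon with different inclusion, given with the splicing data, are among them.

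By exon RPKM the deacetylase genes were the most abundant of the group, and by junction reads both were slightly lower relative to the median gene. Hdac1 (chr4:129193348-129219957, minus strand) had 23913 junction reads in the control and 17460 in the knockdown, a log2 ratio of −0.10, or −0.28 (95% interval −0.31 to −0.25) relative to the median gene. Hdac2 (chr10:36694350-36721695, plus strand) had 40099 and 29680 reads, a log2 ratio of −0.08, or −0.26 (−0.28 to −0.24) relative to the median gene. For both genes, all 13 junctions with enough reads lay below the median gene.

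Sin3a (chr9:56919847-56976173, plus strand), which links sequence-specific repressors to the deacetylases, had 8397 junction reads in the control and 6758 in the knockdown. The log2 ratio was 0.04 (95% interval −0.01 to 0.08), or −0.14 (−0.19 to −0.09) relative to the median gene. Its direction thus depended on the scale, and 15 of its 23 junctions lay below the median gene.

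Of the phosphatases, Ctdsp1 was lowest relative to the median gene, and its interval did not reach 0. Ctdsp1 (chr1:74438083-74443859, plus strand), which encodes SCP1, had 2076 junction reads in the control and 1291 in the knockdown. The log2 ratio was −0.33 (95% interval −0.44 to −0.23), and −0.51 (−0.61 to −0.41) relative to the median gene, a 1.43-fold lower level, with only 6.20% of genes below it. All 6 Ctdsp1 junctions lay below the median gene, from −0.82 to −0.35. The lowest was the intron chr1:74440650-74441213, with 225 reads in the control and 113 in the knockdown. Exon reads, 10043 and 6371, gave −0.54 relative to the median gene (95% interval −0.58 to −0.49).

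Ctdsp2 (chr10:126415773-126437031, plus strand), which encodes SCP2, had 3073 and 2383 junction reads. The log2 ratio of −0.02 (95% interval −0.09 to 0.06) was −0.19 (−0.27 to −0.12) relative to the median gene, and 7 of 8 junctions lay below the median gene. Ctdspl (chr9:118835571-118953116, plus strand), which encodes SCP3, was near the limit of detection with 61 and 67 junction reads. Its log2 ratio of 0.49 (95% interval −0.04 to 1.01) was 0.31 relative to the median gene with an interval from −0.21 to 0.83, so no difference was detectable at this depth. Ctdsp1 and Ctdsp2 thus had intervals relative to the median gene that did not overlap, while that of Ctdspl was too wide to place it.

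The Cufflinks isoform tables gave other values for some of these genes. Summed over RefSeq isoforms, read depth times length gave a ratio for 7 of the 10 genes. Of these 7, 2 were lower by 1.5-fold or more, Rcor1 at −1.80 and Rcor2 at −0.93 on the log2 scale, and 0 were higher, beside 11% and 21.4% of all genes. Ctdsp1 stood at −0.39, Ctdsp2 at −0.24, Hdac2 at −0.16, Ctdspl at −0.08 and Sin3a at 0.06. The RefSeq isoforms of Rest and Rcor3 were listed at 0 in both libraries and that of Hdac1 at 0 in the knockdown, because assembled isoforms of the same locus carried the depth instead.

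Rcor1 shows how this acts. The control library had a single isoform, the RefSeq one at 141 reads per base. The knockdown had the RefSeq isoform at 33.0 beside 3 assembled isoforms at 86.2, 19.0 and 13.3. With assembled isoforms added, the Rcor1 ratio was 0.61 on the log2 scale, the direction of its junction reads. The FPKM of the gene tables, a depth per length that Cufflinks scales to the library, gave log2 ratios of −0.63 for Ctdsp1, −0.43 for Ctdsp2 and 0.23 for Ctdspl. Among the scaffolds it gave 0.22 for Rcor1, −0.34 for Rcor2 and 0.07 for Rcor3. Rest stood at −0.09, where the bounds given by Cufflinks run from −0.24 to 0.07, so the higher Rest signal of the exon reads was not seen on this scale. Hdac2 stood at −0.33 and Sin3a at −0.58, although the control locus of Sin3a also took in the neighbouring gene Man2c1. Hdac1 stood at 1.45 in FPKM. The Hdac1 locus had only 38.2 reads per base in the control although 23913 reads crossed its junctions, and its locus ratio of 2.36 lay far above its junctions, which ranged from −0.25 to 0.12 on the same log2 scale. Junction reads were therefore used for the values above.

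Exon choice was read from SpliceTrap trios, in which the inclusion of a middle exon between its neighbours is given as percent spliced in (PSI). The 10 genes held 112 trios, and 108 of them reached 20 reads in both libraries, over 92 distinct middle exons. PSI was above 95 in both libraries for 89.8% of the 108 trios, near the 87.0% of all trios with at least 20 reads. None of the 108 rose by 5 points or more and 5 fell, beside 2.73% of all trios that rose and 2.66% that fell. Of the 6 trios in the cassette class, 4 fell and 0 rose, while 16.4% of all cassette trios rose and 15% fell. The 5 trios came from only 2 exons, in Rcor3 and Sin3a, and trios of an exon share reads.

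The Rcor3 exon has 58 nt, is coding in GENCODE and has a length that is not a multiple of 3. It lies at chr1:193932525-193932582 on the minus strand of mm9. The exon and the 100 intron bases before it are shown because PTBP1 binds pyrimidine-rich RNA, often upstream of exons it represses. The letters TCTT, a core of known PTBP1 sites, are in capitals in the intron, and the exon is in capitals throughout.
Rcor3 intron, chr1:193932583-193932682: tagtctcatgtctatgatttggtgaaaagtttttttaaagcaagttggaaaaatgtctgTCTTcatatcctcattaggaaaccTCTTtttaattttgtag
Rcor3 exon: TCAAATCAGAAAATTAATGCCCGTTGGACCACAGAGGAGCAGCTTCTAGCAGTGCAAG

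Its PSI was 85.9 in the control and 74.3 in the knockdown with the nearer downstream exon. The upstream junction had 127 reads in the control and 68 in the knockdown, the downstream junction 184 and 154, and the skipping junction 38 and 57. Scaled to all junction reads and counted at their largest value over trios, the upstream junction had a log2 ratio of −0.30, the downstream junction 0.09 and the skipping junction 0.93. PSI from the reads of this trio alone was 80.4 and 66.1, a difference of −14.3 points (95% Newcombe interval −23.3 to −5.22). The farther downstream exons gave PSI of 74.3 in the control and 53.3 or 53.5 in the knockdown, but rested on 19 and 18 skipping reads, and their junction difference of −10.4 points had an interval from −25.1 to 3.35 that spans 0. Another Rcor3 cassette exon of 114 nt (chr1:193953705-193953818) was mostly skipped and differed little, with PSI of 11.5 and 12.7.

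The Sin3a exon has 108 nt and lies before the start codon, in the 5′ untranslated region, at chr9:56928902-56929009 on the plus strand of mm9. Only its upstream intron is shown, with TCTT in capitals, for comparison with the Rcor3 intron.
Sin3a intron, chr9:56928802-56928901: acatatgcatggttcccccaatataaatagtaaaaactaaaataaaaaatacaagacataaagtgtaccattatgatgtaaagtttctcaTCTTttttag

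Its PSI was 85.9 in the control and 70.9 in the knockdown. The upstream junction had 40 and 37 reads, the downstream junction 204 and 135, and the skipping junction 19 and 34. Scaled to all junction reads, the upstream junction had a log2 ratio of 0.24, while the downstream junction, counted at its largest value over trios, had −0.30. The junction PSI of 86.5 and 71.7 differed by −14.9 points (95% Newcombe interval −24.7 to −5.01). From an alternative first exon the same 108 nt had PSI of 82.8 and 60.0, with 7 skipping reads in the control and 20 in the knockdown. A 9-nt extension at an alternative donor of Sin3a had PSI of 9.1 and 8.8.

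**Figure D3:**
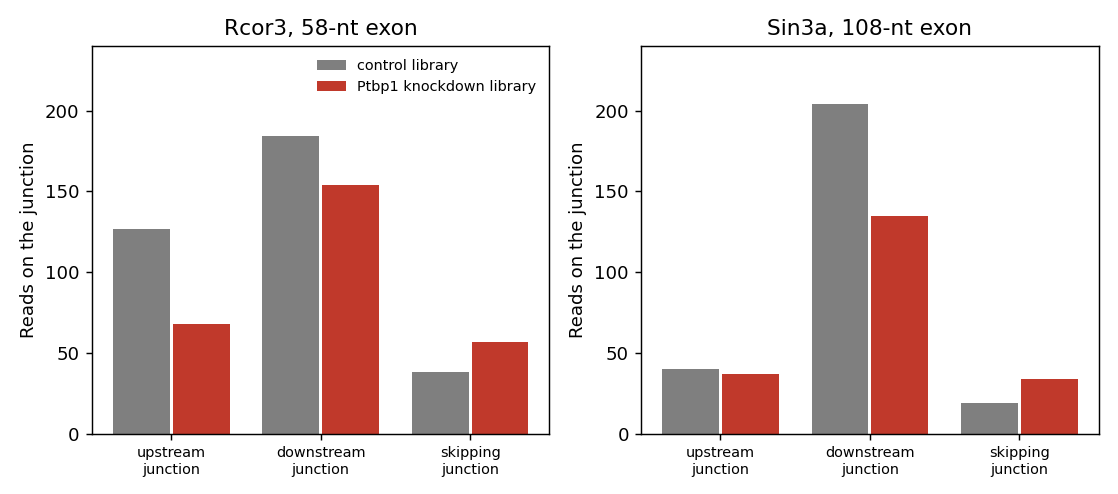
Reads on the junctions into, out of and around the Rcor3 58-nt exon and the Sin3a 108-nt exon, in the control and the Ptbp1 knockdown library, not scaled to library size. The skipping reads were 38 and 57 for Rcor3 and 19 and 34 for Sin3a. The joining reads are fewer in the knockdown, which had fewer junction reads in all. Scaled to all junction reads and counted at their largest value over trios, the log2 ratios differed by junction. They were −0.30 upstream and 0.09 downstream for Rcor3, and 0.24 upstream and −0.30 downstream for Sin3a.

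The introns before these exons held no more pyrimidines than the median exon. Both exons were less included in the knockdown, however. In the regression model of the study, PTBP1 enhancement was linked significantly to downstream binding scores alone. The study also described enhanced exons whose only strong sites lay upstream. Its scores came from a triplet model over a longer upstream window, so pyrimidine share and TCTT counts are a different measure. The introns after these exons were not searched, so the windows cannot show whether PTBP1 sites were absent. The Rcor3 window was 55% pyrimidine, the median of 113619 middle exons, and the Sin3a window was 46%, with 8.37% of exons lower. Searched on the transcribed strand only, TCTT occurred at 2 places in the Rcor3 window and at 1 in the Sin3a window. Of all these exons, 28.4% had as many as Rcor3 and 64.0% as many as Sin3a.

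In the other 8 genes the widest difference in PSI was −1.9 points, in a Ctdsp1 exon of 105 nt with PSI of 99.5 in the control and 97.6 in the knockdown, followed by −1.7 points in an Rcor2 exon of 125 nt at 98.7 and 97.0. The skipping junctions had 2 and 5 reads in Ctdsp1 and 16 and 23 in Rcor2. Of 5 Ctdspl trios only 1 had enough reads. The Ctdsp2 cassette exon of 39 nt had PSI of 99.8 and 99.9 in its trio, with 2 and 1 skipping reads. A shorter form of 24 nt, in another trio, had 30 and 15 reads on its left junction. These values do not cover transcripts without the flanking exons.

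**Figure D4:**
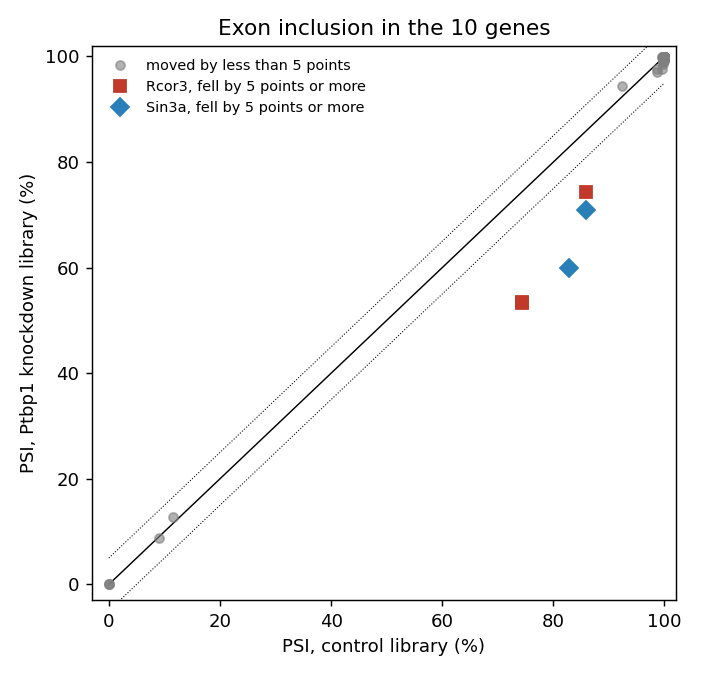
PSI in the control library against PSI in the Ptbp1 knockdown library for the 108 trios, where dotted lines mark a difference of 5 points. The 5 trios that fell belong to Rcor3 (squares, 2 of 3 on top of each other) and Sin3a (diamonds), and the others lie between the dotted lines.

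Other genes of the pathway were taken from lists. Their log2 ratios are those of junction reads, not centred unless stated, and counts at 1.5-fold stand beside 19.2% of all genes higher and 1.5% lower, or 12.8% and 4.12% relative to the median gene. Of 28 further REST cofactors, 26 had enough reads, 1 was higher by 1.5-fold or more and 0 were lower. Relative to the median gene 0 were higher and 1 was lower, and the median was −0.09. By RefSeq isoforms the list looked different, with 0 of 28 higher and 6 lower, beside 21.4% and 11% of all genes. By junction reads and without centring, the highest were Smarcc2, a subunit of the SWI/SNF remodeller, at 0.63 (19743 and 23923 reads), and Gse1 at 0.55. The lowest were Brms1, a subunit of SIN3 complexes, at −0.49 (2029 and 1134 reads), the corepressor gene Cdyl at −0.38 and Sap30 at −0.15. Kdm1a, the demethylase bound by CoREST, stood at 0.07 with 29140 and 23902 reads, named after its value was seen.

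None of the 5 genes that act on REST turnover or splicing passed 1.5-fold by junction reads. By RefSeq isoforms 3 did, with log2 ratios of 2.16 for Usp7, 0.89 for Srrm4 and −0.64 for Usp15. By junction reads Srrm4, which promotes the truncating Rest exon, had 611 and 658 reads and a log2 ratio of 0.46, or 0.28 relative to the median gene. Btrc, the ubiquitin ligase subunit that marks REST for destruction, stood at 0.46 and the deubiquitinases Usp7 and Usp15 at −0.20 and −0.30, with Telo2 at 0.11. A list of other CTD phosphatases and relatives held 8 symbols, and not all of these genes are known to act on the CTD. Of the 8, 7 had enough reads, Dullard being an older name of Ctdnep1. None of the 7 passed 1.5-fold by junction reads, while 1 was lower by RefSeq isoforms. By junction reads they ranged from Timm50 at −0.18, Ctdnep1 at −0.04 and Ssu72 at −0.03 to Ublcp1 at 0.13, Ctdspl2 at 0.23 and Rpap2 at 0.28.

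The RE1 target genes are neuronal genes that REST binds. Of 43 listed, 34 had enough reads, 15 were higher by 1.5-fold or more and 0 lower. Relative to the median gene 11 were higher and 1 lower, and the median log2 ratio was 0.55, or 0.38 relative to the median gene. RefSeq isoforms gave 12 of 33 higher and 3 lower, with a median of 0.23. By junction reads the highest were Th and Dbh, enzymes of catecholamine synthesis, with 63 and 289 reads (log2 ratio 2.55) and 3755 and 12900 reads (2.13), and Vamp2, a synaptic vesicle protein, with 808 and 2407 reads (1.93). The lowest were Stmn2, a tubulin-binding protein of growing neurites, at −0.43 with 11650 and 6794 reads, Cplx1 at −0.25 and Tubb3 at −0.08. Whether these differences are related to the levels of the 10 genes was not tested.

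**Figure D5:**
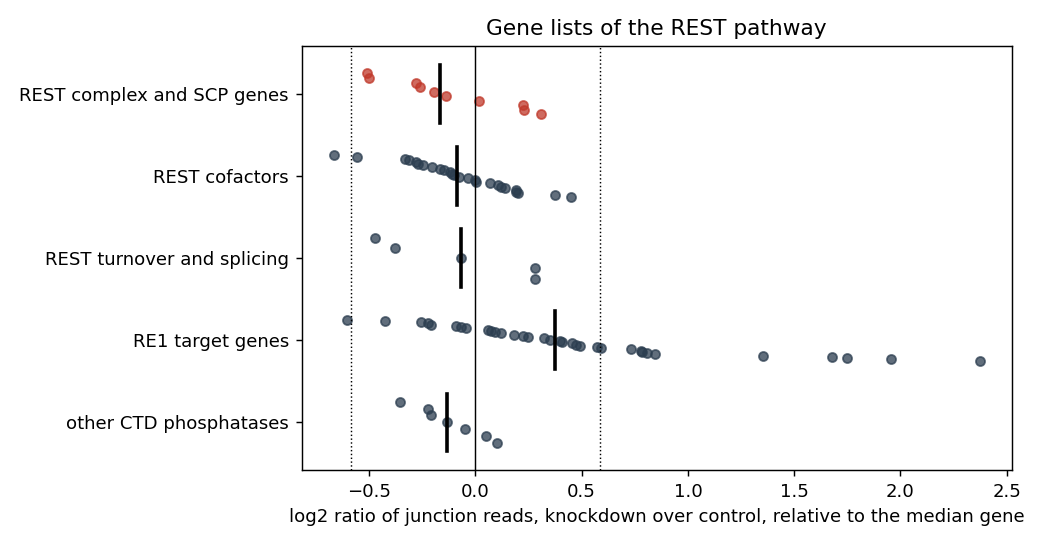
Log2 ratio of junction reads relative to the median gene for each gene with enough reads, by list, with a bar at the median of the list. Dotted lines mark 1.5-fold: the 10 genes (top) lie between them, and 11 RE1 target genes lie above the upper line.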

How the data were processed

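Reads of 1 control and 1 Ptbp1 knockdown library were aligned to mm9 by the authors with TopHat and assembled with Cufflinks beside RefSeq transcripts; versions are not given in the sources used here. The deposited tables hold isoform coverage (read depth per base), FPKM on an unusual scale (used only as ratios), a Cufflinks score (not used), and SpliceTrap inclusion ratios as a fraction with junction read counts and exon coverage. Members and lists were chosen with earlier results of these data known.

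RefSeq isoform depth times length over the library total had been set as the measure of level; since it was undefined for 3 genes and moved with the assembly, junction reads, each distinct junction counted at its largest value over trios, were led with after the values were seen. Genes had a mean of at least 20 junction reads (1 read per base for isoforms). Junction ratios carry exact conditional binomial intervals, PSI differences Newcombe intervals, both at 95%. PCR copies are not independent, so intervals cover counting error only. The interval code was tested on simulated data. Named were every member, every member trio that moved by 5 points, and the 3 highest and 3 lowest of each list, of which 1 is not reported here. Sequence windows came from NCBIM37 (mm9), where 99.7% of 113619 middle exons followed AG, and annotation from GENCODE vM1. Python 3.11.15, pandas 2.3.3 and SciPy 1.17.1 were used.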

Additional observations from a re-analysis of the deposited data

How the results depend on the processing

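Each condition had 1 library, so leaving out a replicate was not possible, and no paired analysis was possible because there is no second pair. By RefSeq isoforms Rcor1 was lower, and it was higher by every other measure of its reads: the log2 ratio was 0.22 by gene FPKM, 0.61 with assembled isoforms, 0.40 by junction reads, 0.22 by junction reads relative to the median gene and 0.32 by exon reads. RefSeq isoforms gave 0 members higher and 2 lower by 1.5-fold. Gene FPKM gave 1 higher and 1 lower, and assembled isoforms 2 higher and 0 lower. Junction reads, junction reads relative to the median gene and exon reads gave 0 lower. Of the RE1 target genes, gene FPKM gave 8 higher and 3 lower. At 2-fold, RefSeq isoforms gave 1 lower and junction reads relative to the median gene 0. With at least 10 reads, 1 member trio rose, a Ctdspl exon of 33 nt with PSI of 94.2 and 99.9 over 14 and 12 reads. With 1 trio per exon, 2 fell. Centring of junction reads and the exon reads were chosen after seeing the data. Over all settings tried, the log2 ratio ran from −0.63 to −0.33 for Ctdsp1, from −1.01 to −0.31 for Rcor2 and from −0.33 to −0.08 for Hdac2, keeping its sign. That of Rest ran from −0.09 by gene FPKM to 0.58 by exon reads, that of Hdac1 ran from −5.29 to 2.36, that of Sin3a from −0.58 to 0.11, that of Ctdsp2 from −0.43 to 0.03 and that of Ctdspl from −0.16 to 0.53. Depth limits Rest and Ctdspl.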

Other observations

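Of the 108 trios, 3 had a PSI of 0 in both libraries although their junction reads supported inclusion only, 1 in Rcor2 and 2 in Ctdsp2. The Rcor2 exon of 238 nt had 564 and 352 reads on the junction to its right and 0 skipping reads. Over the whole tables this held for 1011 of 145628 trios, or 0.694%, so a PSI of 0 in these tables need not mean skipping.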
